A study of Rattus norvegicus with 6 samples.

Results

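The angiopoietin and Tie genes described here are 7 genes, chosen by their symbols from the 33566 genes of the deposited count table. They comprise the receptor genes Tek and Tie1, the ligand genes Angpt1, Angpt2 and Angpt4, and the transcription factor genes Foxo1 and Foxo3. RNA was sequenced from 6 libraries of primary rat brain microvascular endothelial cells (rBMECs), the cells that line brain capillaries, isolated from the cortex of SD rats 18 to 22 days old and used after 1 passage. The 3 Hcy libraries came from cells given homocysteine, labelled 100 μM, for 24 h, and the 3 Veh libraries from cells given sterile water as vehicle. The treatment text of the labels also names a solution of 50 μM, so the dose is given here as labelled. The series describes the replicates as biological, and the sources do not say whether they came from separate isolations, so the p-values cover the spread between these libraries.

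TIE2, the protein of Tek, is a receptor tyrosine kinase of endothelial cells. Angiopoietin-1 from mural and other supporting cells activates it and keeps vessels quiescent and tight. Angiopoietin-2, made by endothelial cells and stored in their Weibel-Palade bodies, can block or weakly activate the same receptor and is linked to vessel leak and remodelling. TIE1 is a related receptor that binds angiopoietins poorly by itself and modulates TIE2 within a complex. TIE2 signals through PI3K and AKT, which hold FOXO1 and FOXO3 out of the nucleus, and FOXO1 is known to drive Angpt2 transcription in endothelium.

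The libraries held 14024997 to 16764584 counts, at which depth 3 counts equal 0.178 to 0.215 CPM (TMM-normalized counts scaled to a common library size), the floor of detection used here for counting error only. Of the 33566 genes, 14603 had at least 10 counts over the 6 libraries and were tested. A gene passed the test when its p in the quasi-likelihood test of edgeR, adjusted by the Benjamini-Hochberg method, was 0.05 or less. This held for 341 genes, 2.34% of those tested, with 1.32% of tested genes higher and 1.01% lower in Hcy. The endothelial label was checked against 14 marker genes, of which 13 had a row. The one without a row was Pecam1, the gene of CD31, the protein that the study stained to check the purity of its rBMECs. Their summed level was 9037 to 9386 CPM in Hcy and 7640 to 8902 CPM in Veh, lowest in Veh replicate 3, with Cldn5 at 0 counts in every library. Among the endothelial markers, Vwf, Cdh5 and Eng had the highest CPM, uncorrected for gene length. Of the 12 tested, 7 were by sign higher and 5 lower in Hcy, and the groups did not overlap for 3 of the higher and 3 of the lower ones. Over all genes tested, 10.8% were higher and 9.27% lower without overlap. None of the 12 passed the test, and 7 had p of 0.05 or less before adjustment, where 13.4% of all genes did.

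Markers of other cell types were detected at lower levels, and their part in the results below was not tested. Of 10 mural markers, all tested, 2 passed the test, both lower in Hcy, where 2.34% of all genes passed and 1.01% passed lower in Hcy. These were the contractile genes Tagln and Acta2 (log2 fold changes of -0.88 and -0.64, edgeR adjusted p = 0.000801 and 0.0248). They made up nearly all of the summed mural level, 674 to 700 CPM in Hcy and 1104 to 1330 CPM in Veh. By sign, 6 of the 10 were higher in Hcy and the list median log2 fold change was 0.49, with the pericyte gene Pdgfrb at 0.73 (19 to 54 counts, edgeR adjusted p = 0.443). Astrocyte markers summed to 113 to 116 CPM in Hcy and 126 to 150 CPM in Veh, nearly all of it Gja1, while Aqp4 and Slc1a2 were at 0 in every library. Fibroblast markers summed to 52.0 to 70.3 CPM in Hcy and 68.2 to 94.5 CPM in Veh, mostly Col1a1. Oligodendrocyte lineage markers summed to 10.6 to 12.4 CPM in Hcy and 11.3 to 11.4 CPM in Veh, mostly Mog. Neuron markers summed to 7.05 to 9.77 CPM in Hcy and 5.22 to 7.18 CPM in Veh, mostly Tubb3 and Syt1, with Rbfox3, Snap25 and Map2 at 0. Microglia and macrophage markers summed to 2.22 to 3.09 CPM in Hcy and 2.32 to 2.74 CPM in Veh, with Cx3cr1, P2ry12 and Ptprc at 0. Epithelial markers summed to at most 0.836 CPM.

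Veh replicate 3 stood apart from the other libraries on the second principal component of 12296 expressed genes (30.4, against -19 to 9.98), so values without it are given where they change a call or move a value by over 1.5 times.

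Promoter sequences from RefSeq (build GRCr8) were found for only 3 of the 7 genes, and the 250 bases before each of these start sites are shown here. They run 5′ to 3′ on the gene's strand, with CpG dinucleotides, the sites of DNA methylation, in capitals. The Tie1 window is chr5:137304982-137305231 on the minus strand, that of Foxo1 chr2:138462724-138462973 on the plus strand, and that of Angpt4 chr3:160880480-160880729 on the plus strand.
Tie1: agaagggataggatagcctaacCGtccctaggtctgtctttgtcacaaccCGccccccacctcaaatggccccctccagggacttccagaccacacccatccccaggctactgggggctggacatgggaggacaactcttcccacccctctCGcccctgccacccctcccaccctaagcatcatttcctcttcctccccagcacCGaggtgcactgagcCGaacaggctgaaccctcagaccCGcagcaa
Foxo1: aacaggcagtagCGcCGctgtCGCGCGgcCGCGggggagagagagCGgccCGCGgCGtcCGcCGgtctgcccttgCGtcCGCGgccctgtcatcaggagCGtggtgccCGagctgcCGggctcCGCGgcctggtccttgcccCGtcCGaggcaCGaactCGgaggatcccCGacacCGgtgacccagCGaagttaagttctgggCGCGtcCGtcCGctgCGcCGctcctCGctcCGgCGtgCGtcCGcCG
Angpt4: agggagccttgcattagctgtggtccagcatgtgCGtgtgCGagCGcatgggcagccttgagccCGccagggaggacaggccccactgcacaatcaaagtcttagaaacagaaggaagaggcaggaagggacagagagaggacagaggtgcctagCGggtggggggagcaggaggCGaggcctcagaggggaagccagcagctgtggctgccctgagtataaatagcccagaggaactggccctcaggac

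The Foxo1 window held 40 CpG dinucleotides at a GC content of 74.4%, and 1.16% of the 33469 promoters in the RefSeq table held as many. Those of Tie1 and Angpt4 held 6 each, at GC contents of 61.6% and 61.2%, close to the median of 5 over all promoters. The ETS core GGAA, searched on both strands, occurred 4 times each in the Tie1 and Angpt4 windows and 0 times in that of Foxo1, and 93.2% of promoters held it. The FOXO element GTAAACA, searched on both strands, was in none of these 3 windows, and 3.22% of promoters held it. These are letter matches in short windows, and DNA methylation of these promoters was not analysed here.

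Between genes, levels were compared as CPM per kb of the deposited gene length. Angpt2 was by far the most abundant of the 7, at 1463 ± 10.4 CPM per kb in Hcy and 1250 ± 46.8 in Veh (SD, n = 3), which placed it 42nd by mean level among the 14603 genes tested. Tie1 came next, at 279 ± 7.82 CPM per kb in Hcy and 259 ± 14.6 in Veh, at rank 327. Tek followed at rank 1521, Foxo1 at rank 3205 and Foxo3 at rank 8907, with overall means of 58.5, 25.5 and 3.43 CPM per kb. No library of any of these 5 genes reached the range of its neighbour in this order. The rBMECs thus held both receptor transcripts, and the level of Tie1 per length was 4.93 to 5.41 times that of Tek in Hcy and 3.85 to 4.21 times in Veh.

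**Figure D1:**
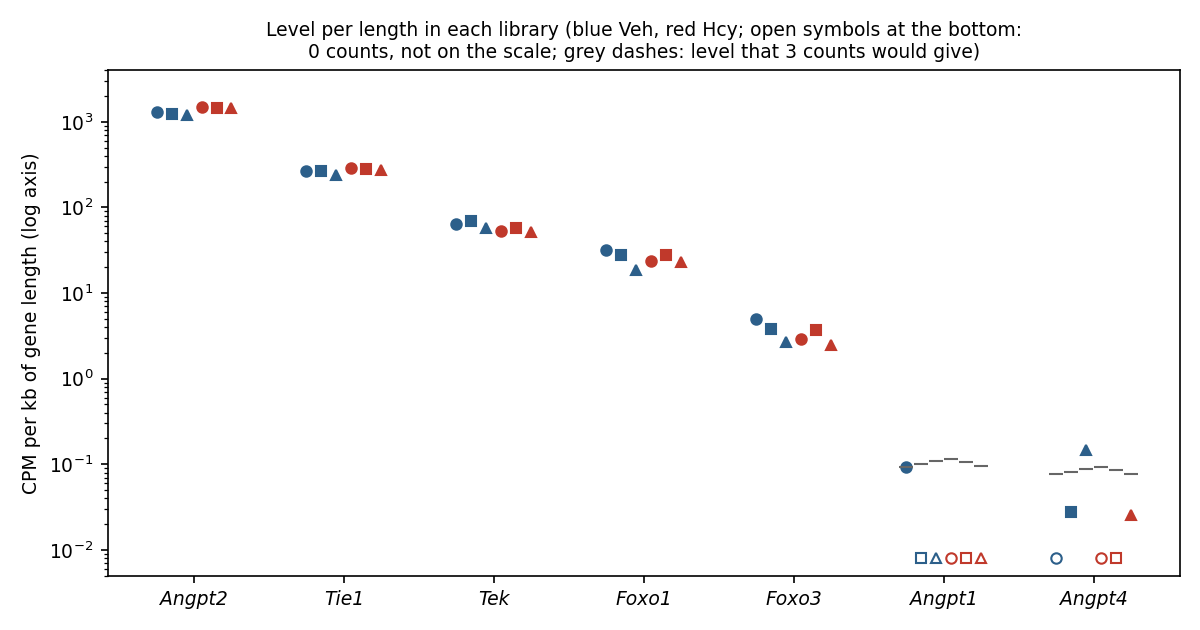
Level of each of the 7 genes in each library as CPM per kb of gene length on a log axis, with Veh in blue, Hcy in red, and circles, squares and triangles for replicates 1, 2 and 3. Open symbols mark 0 counts, and grey dashes mark the level that 3 counts would give. Angpt2 lies at 1208 CPM per kb or more in every library, while Angpt1 and Angpt4 lie at or near the floor.

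The ligand side of the system was held almost entirely by Angpt2. Angpt1, which encodes the TIE2 agonist, had 3 counts in Veh replicate 1 and 0 in each of the other 5 libraries. Angpt4, which encodes a further angiopoietin, had 1 count in Hcy replicate 3, 1 in Veh replicate 2 and 5 in Veh replicate 3, with 0 in the others. Both were under the count minimum of 10 and were left out of the test, and only Angpt4 in Veh replicate 3 exceeded the floor of 3 counts. Against the level that 3 counts of Angpt1 would give in the same library, Angpt2 per length was at least 11002-fold higher in each of the 5 libraries with 0 Angpt1 counts. A transcript below this floor was not detectable at this depth, which does not show that it was absent.

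Angpt2 (ENSRNOG00000016696, listed on chromosome 16 from 75966352 to 76016195, plus strand) stood at 3603, 3565 and 3555 CPM in Hcy replicates 1 to 3. In Veh replicates 1 to 3 it stood at 3177, 3029 and 2952 CPM. Every Hcy library was above every Veh library, as for 10.8% of all genes tested (20.1% in either direction), and in bulk RNA a change in the share of a cell type and a change per cell cannot be told apart. Means were 3574 ± 25.3 CPM in Hcy and 3053 ± 114 CPM in Veh (SD, n = 3), a log2 fold change of 0.23 (SE 0.06, 95% interval 0.10 to 0.36). This 1.17-fold difference did not pass the test (edgeR adjusted p = 0.0966, unadjusted p = 0.00355). It passed with DESeq2 (log2 fold change 0.23, adjusted p = 0.0253) and in edgeR without Veh replicate 3 (log2 fold change 0.20, adjusted p = 0.0222), and its adjusted p ran from 0.0222 to 0.353 over the 13 alternatives. The log2 fold change itself stayed between 0.20 and 0.26 when each library was left out.

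Angpt2 was also among the steadiest genes of its level. Its within-group SD of log2 CPM, pooled over both groups, was 0.04, against a median of 0.10 for the 135 tested genes above 1000 CPM, of which 2.96% had a smaller SD. The coefficient of variation of its CPM was 0.707% in Hcy and 3.75% in Veh.

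**Figure D2:**
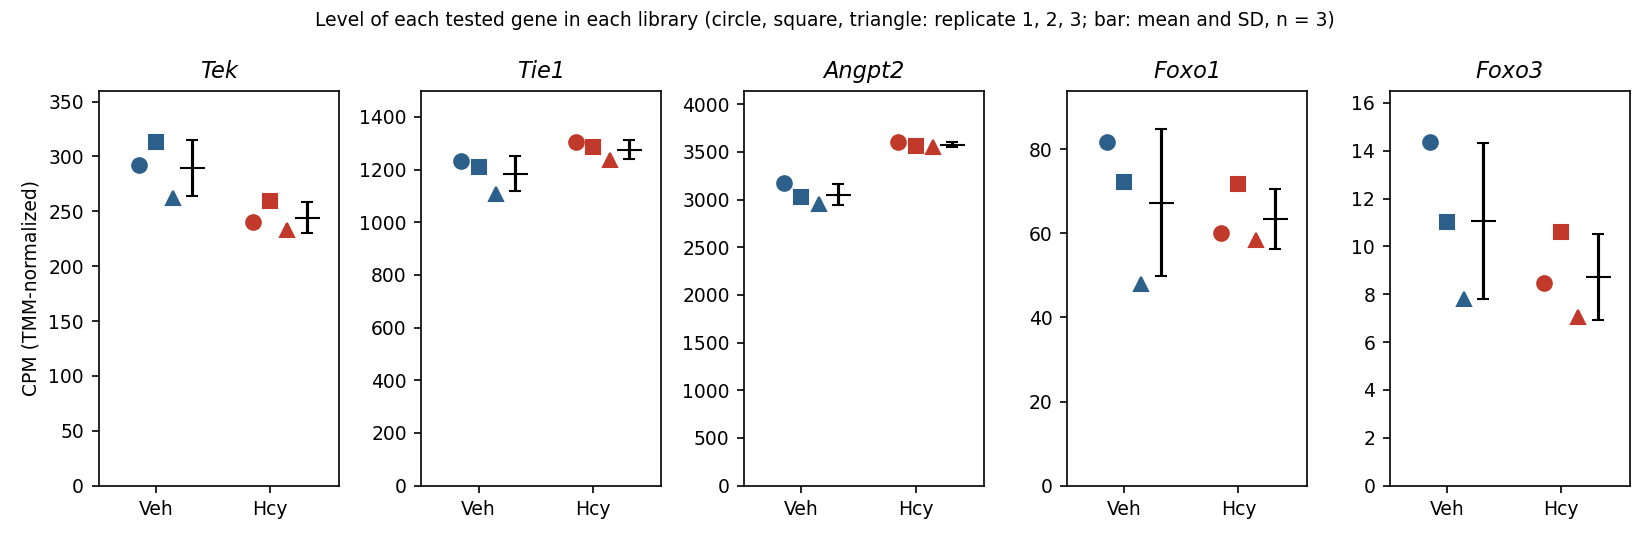
TMM-normalized CPM of the 5 tested genes in each library, with circles, squares and triangles for replicates 1, 2 and 3, and bars for the mean and SD of 3 libraries. Angpt2 and Tie1 in Hcy lie above, and Tek below, every Veh library, while the groups overlap for Foxo1 and Foxo3.

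Tek (ENSRNOG00000008587, chromosome 5 from 113725717 to 113852799, plus strand), the gene of the TIE2 receptor, stood lower in the Hcy libraries. It was at 240, 260 and 233 CPM in Hcy replicates 1 to 3 and at 292, 313 and 262 CPM in Veh replicates 1 to 3. All Hcy libraries were below all Veh libraries, as for 9.27% of genes tested, although Hcy replicate 2 and Veh replicate 3 lay close together. Means were 244 ± 13.9 CPM in Hcy and 289 ± 25.5 CPM in Veh (SD, n = 3), a log2 fold change of -0.24 (SE 0.08, 95% interval -0.43 to -0.05). The difference did not pass the test (edgeR adjusted p = 0.224, unadjusted p = 0.0175). Without Veh replicate 3, the Veh library with the lowest Tek level, the log2 fold change was -0.31 and passed (edgeR adjusted p = 0.0167), and over the 13 alternatives the adjusted p ran from 0.0167 to 0.572.

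Tie1 (ENSRNOG00000020173, chromosome 5 from 137294544 to 137321121, minus strand) was at 1304, 1286 and 1235 CPM in Hcy replicates 1 to 3. In Veh replicates 1 to 3 it was at 1232, 1210 and 1108 CPM. The groups did not overlap, with Hcy higher as for 10.8% of genes tested, but the lowest Hcy and highest Veh libraries differed by less than 3 CPM. Means were 1275 ± 35.8 and 1183 ± 66.6 CPM (SD, n = 3), with a log2 fold change of 0.11 (SE 0.07, 95% interval -0.04 to 0.26, edgeR adjusted p = 0.55). None of the 13 alternatives brought Tie1 past the test, and without Veh replicate 3 its log2 fold change was 0.062 (edgeR adjusted p = 0.5).

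The balance between the receptors was compared as the log2 ratio of Tek to Tie1 CPM in each library. It was -2.44, -2.31 and -2.41 in Hcy replicates 1 to 3 and -2.08, -1.95 and -2.08 in Veh replicates 1 to 3. The ratio was lower in all 3 Hcy libraries, with a mean difference of -0.35, and a two-sided exact permutation test gave p = 0.1, the smallest that 3 libraries against 3 allow. Leaving out each library kept the difference between -0.39 and -0.31. The corresponding log2 ratio of Angpt2 to Angpt1, computed with 0.5 added to each count, was 1.12 higher in Hcy and 0.62 higher with 2 added. Angpt1 was at 0 in 5 of the 6 libraries, so this ratio is set by the added count and is given with no test. The difference was 0.27 without Veh replicate 1, the library with the 3 Angpt1 reads.

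The groups overlapped for both FOXO genes, in each case only through Veh replicate 3. Foxo1 (ENSRNOG00000013397, chromosome 2 from 141451234 to 141527016, plus strand) encodes a transcription factor restrained by AKT and was at 60.1, 71.6 and 58.5 CPM in Hcy replicates 1 to 3. In Veh replicates 1 to 3 it was at 81.7, 72.1 and 47.8 CPM, so the highest and the lowest of the 6 libraries were both Veh. Its log2 fold change was -0.09 (SE 0.18, 95% interval -0.49 to 0.31, edgeR adjusted p = 0.899). The sign turned to 0.080 without Veh replicate 1, and the value was -0.28 without Veh replicate 3 (edgeR adjusted p = 0.904 and 0.127, unadjusted p = 0.0156 in the latter), so the Foxo1 direction is not settled by these libraries.

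Foxo3 (ENSRNOG00000000299, chromosome 20 from 46428124 to 46519144, plus strand), the related factor linked to cell cycle arrest and stress resistance, was at 8.47, 10.6 and 7.04 CPM in Hcy replicates 1 to 3. In Veh replicates 1 to 3 it was at 14.4, 11 and 7.82 CPM, and the groups overlapped. Its log2 fold change was -0.35 (SE 0.23, 95% interval -0.88 to 0.18, edgeR adjusted p = 0.594). It was -0.12 without Veh replicate 1 (edgeR adjusted p = 0.895) and -0.22 without Hcy replicate 3 (edgeR adjusted p = 0.879). It was -0.55 without Veh replicate 3 (unadjusted p = 0.016, edgeR adjusted p = 0.128).

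Foxo1 and Foxo3 varied far more within groups than Angpt2, Tie1 or Tek. The pooled within-group SD of log2 CPM was 0.31 for Foxo1, against a median of 0.10 for 2219 tested genes between 60 and 200 CPM, and 97.7% of those genes had a smaller SD. For Foxo3 it was 0.37, against a median of 0.18 for 3083 genes between 5 and 20 CPM, of which 92.1% had a smaller SD. In Veh replicate 3 the CPM of Foxo1 and Foxo3 was 0.622 and 0.616 times the mean of the other Veh libraries, while Tek was at 0.866, Tie1 at 0.907 and Angpt2 at 0.951 times. The share of this spread that came from the library rather than the cells was not tested.

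**Figure D3:**
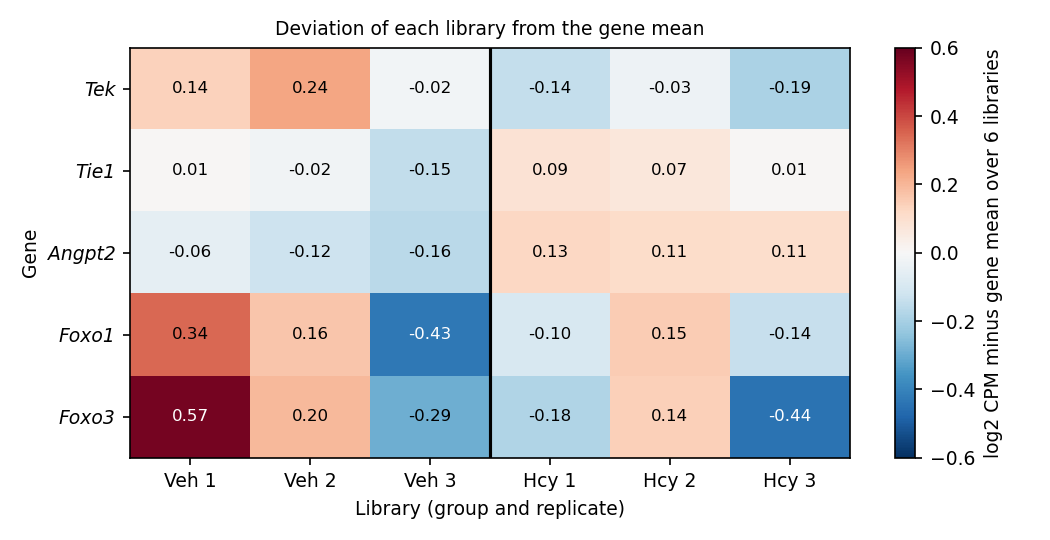
log2 CPM of the 5 tested genes in each library minus the gene's mean over 6 libraries, printed in each cell and coloured from blue (below the mean) to red (above). Angpt2 separates the groups evenly, while Foxo1 and Foxo3 are highest in Veh replicate 1, at 0.34 and 0.57. The lowest Foxo1 value is -0.43 in Veh replicate 3, and the lowest Foxo3 value is -0.44 in Hcy replicate 3.

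Of the 5 genes tested, 0 passed the test in edgeR, where 2.34% of all genes did, and 2, Angpt2 and Tek, had p of 0.05 or less before adjustment, as 13.4% of all genes did. DESeq2 called Angpt2 alone, where it called 5.09% of the 12024 genes it gave an adjusted p. Without Veh replicate 3, edgeR called Angpt2 and Tek, where 6.67% of 14352 genes passed. None of the 5 reached an absolute log2 fold change of 1, the fold threshold of the study's methods, which 0.486% of genes passed together with the adjusted p (0.253% higher and 0.233% lower in Hcy). In the other alternatives 0 of the 5 passed. There the share of all genes that passed was 2.36% with DESeq2 size factors, 2.37% with library totals alone, 2.48% with a count minimum of 1, 3.2% with filterByExpr, 2.04% with the replicate block and 2.34% with a prior count of 2. It was 0.557%, 0.663% and 0.567% without Hcy replicates 1, 2 and 3, and 1.05% and 0.858% without Veh replicates 1 and 2.

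**Figure D4:**
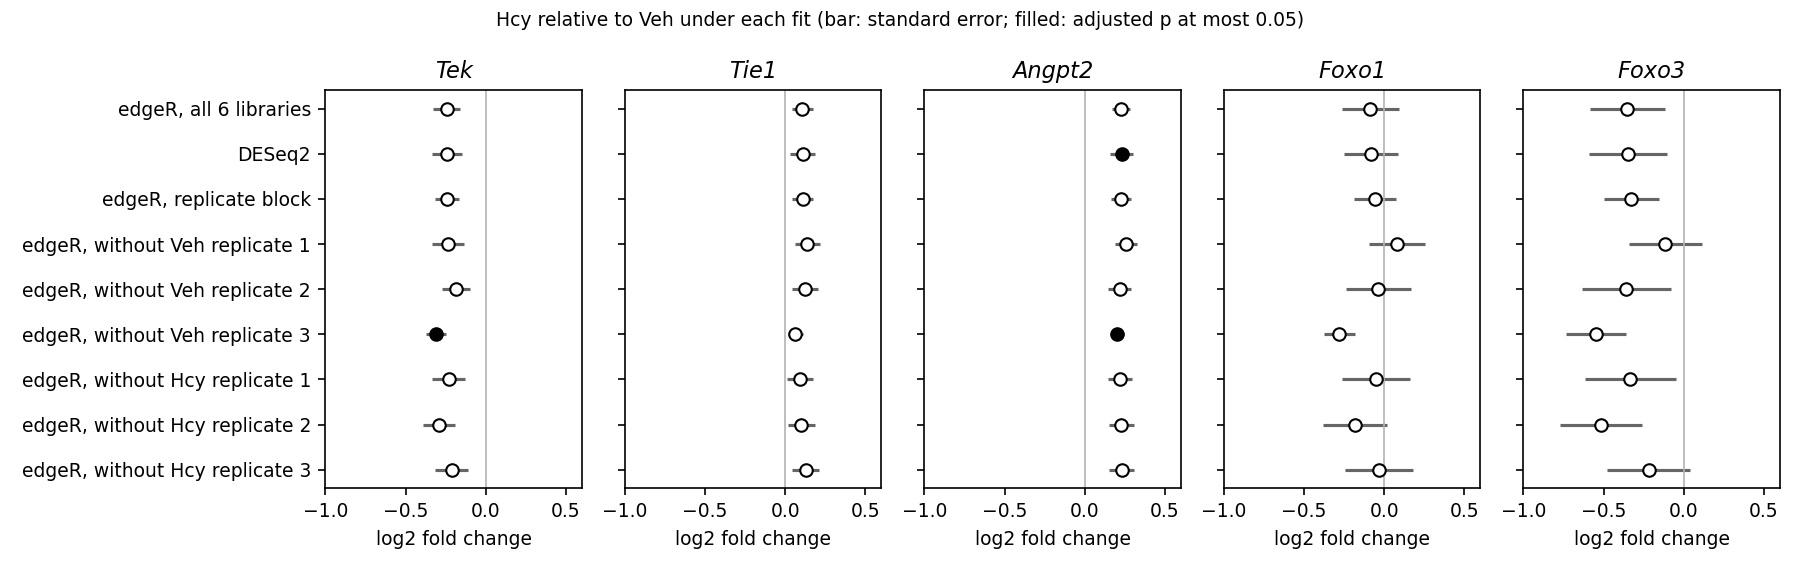
log2 fold change of Hcy relative to Veh for the 5 tested genes under edgeR with all libraries, DESeq2, the replicate block and each library left out, with bars for the SE and filled points for an adjusted p of at most 0.05. Filled points appear for Angpt2 with DESeq2 and without Veh replicate 3, and for Tek without Veh replicate 3. The Foxo1 point crosses 0 without Veh replicate 1.

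Other genes of the pathway were read from 6 lists of 83 genes in all, of which 75 were tested. Of these 1 passed, Mdm2, where 2.34% of all tested genes did, and 15 had p of 0.05 or less before adjustment, where 13.4% did. Among regulators of the Tie receptors, 0 of 8 tested passed in edgeR, 1 had p of 0.05 or less before adjustment, and DESeq2 called 0. The list median log2 fold change was 0.07, against -0.02 over all genes, and it turned to -0.07 without Veh replicate 3. This median was 0.17 without Veh replicate 1, 0.12 without Veh replicate 2, 0.03 without Hcy replicate 2 and 0.04 with a count minimum of 1. Itgb1, an integrin subunit that angiopoietins can engage, had a log2 fold change of 0.17 (edgeR adjusted p = 0.237), and Svep1, an extracellular protein that binds TIE1, had 1 to 14 counts per library and a log2 fold change of -1.21 (edgeR adjusted p = 0.447), or -0.75 without Hcy replicate 2, the library with 1 count. Ptprb, which encodes the phosphatase VE-PTP that switches TIE2 off, was at 141, 174 and 132 CPM in Hcy replicates 1 to 3 and at 224, 206 and 122 CPM in Veh replicates 1 to 3. The Ptprb groups overlapped only through Veh replicate 3. Its log2 fold change was -0.31 with all libraries (edgeR adjusted p = 0.592) and -0.53 without Veh replicate 3 (edgeR adjusted p = 0.0142, with a range of 0.0142 to 0.856 over the alternatives). Without Veh replicate 1 it was -0.14.

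Of the TIE2 downstream signalling genes, adaptors and kinases of the PI3K, AKT and MAPK routes, 0 of 22 tested passed in edgeR and in DESeq2, and 0 had p of 0.05 or less before adjustment. Without Veh replicate 3, 2 of the 22 passed in edgeR, both lower in Hcy, where 6.67% of all genes passed. In that fit 7 had p of 0.05 or less before adjustment. The share of all genes at that p was not computed for that fit, so the count of 7 has no background. The list median log2 fold change was -0.02, and -0.06 without Veh replicate 3. It turned to 0.0066 without Veh replicate 2 and to 0.00018 without Hcy replicate 1. The smallest p were those of Mapk3, which encodes ERK1, with a log2 fold change of 0.17 (edgeR adjusted p = 0.388), and of Pik3cb, a PI3K catalytic subunit, with -0.27 (edgeR adjusted p = 0.408). Without Veh replicate 3, Pik3cb passed at -0.39 (edgeR adjusted p = 0.0401, with a range of 0.0401 to 0.718 over the alternatives), and it was -0.15 without Veh replicate 2. Nos3, the endothelial nitric oxide synthase gene, named after its values were seen, was lower in every Hcy library, as for 9.27% of genes tested. It was at 715 ± 12.2 CPM in Hcy against 770 ± 35.3 CPM in Veh (SD, n = 3), with a log2 fold change of -0.11 (edgeR adjusted p = 0.532).

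Among the FOXO family and its regulators, 1 of 12 tested passed, downward, where 1.01% of all genes passed lower in Hcy. The list median log2 fold change was -0.03, with a sign change to 0.04 without Hcy replicate 1 or without Veh replicate 1. Mdm2, a ubiquitin ligase best known for degrading p53 and also reported to act on FOXO proteins, fell from 516 ± 47.1 CPM in Veh to 313 ± 14.2 CPM in Hcy (SD, n = 3). Its log2 fold change was -0.72 (SE 0.08, edgeR adjusted p = 0.00353), and it passed the test in all 13 alternatives.

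Of 20 tested FOXO target genes, 0 passed in edgeR, while 9 had p of 0.05 or less before adjustment and DESeq2 called 4, of which 1 was higher and 3 were lower in Hcy. Over all genes these shares were 2.34%, 13.4% and 5.09%. The count of 9 was 5 without Hcy replicate 3 or without Veh replicate 2, 6 without Hcy replicate 1 and 11 without Veh replicate 3. The 13.4% is from the fit with all libraries, and the share at that p was not computed with a library left out. The libraries of the groups did not overlap for 10 of the 20, with 5 higher and 5 lower in Hcy, where 10.8% of all genes were higher and 9.27% lower without overlap. The list median log2 fold change was -0.04, but -0.0057 without Veh replicate 1 and -0.018 with the replicate block. Cat, which encodes the peroxide-degrading enzyme catalase, had a log2 fold change of -0.31 (edgeR adjusted p = 0.0692, DESeq2 adjusted p = 0.0108). Sod2, the mitochondrial superoxide dismutase, had a log2 fold change of 0.30 (edgeR adjusted p = 0.085, DESeq2 adjusted p = 0.0128). Without Veh replicate 3, 5 of the 20 passed in edgeR, where 6.67% of all genes did, and the list median was -0.16. Of the 5, 2 were higher in Hcy and 3 lower, with Sod2 at 0.37 (edgeR adjusted p = 0.00324) and Cat at -0.29 (edgeR adjusted p = 0.0271). Over the alternatives the adjusted p ran from 0.0108 to 0.295 for Cat and from 0.00324 to 0.279 for Sod2.

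Among genes for the storage and release of Angpt2, 0 of 9 tested passed in edgeR, 2 had p of 0.05 or less before adjustment, and DESeq2 called 1. The shares of all genes were 2.34%, 13.4% and 5.09%. The 2 became 1 without Hcy replicate 1 or without Veh replicate 1, and 4 without Veh replicate 3. For these fits the share of all genes at that p was not computed. The list median log2 fold change was 0.04, with 0.020 without Veh replicate 2 and 0.070 without Hcy replicate 2. Vwf, the core protein of the Weibel-Palade bodies, was at 2940, 3003 and 2858 CPM in Hcy replicates 1 to 3 and at 2533, 2355 and 1976 CPM in Veh replicates 1 to 3. Every Hcy library was above every Veh library, as for Angpt2 and for 10.8% of all genes tested. The log2 fold change of Vwf was 0.36 (SE 0.09, edgeR adjusted p = 0.0932, DESeq2 adjusted p = 0.00956), and 0.26 without Veh replicate 3 (edgeR adjusted p = 0.0118, with a range of 0.00956 to 0.289 over the alternatives). With a count minimum of 1, Vwf also passed, at 0.36 (edgeR adjusted p = 0.049). Selp, P-selectin of the same organelle, had a log2 fold change of -0.55 (edgeR adjusted p = 0.278) at 3.57 ± 0.726 CPM in Hcy and 5.25 ± 0.557 CPM in Veh (SD, n = 3).

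The angiopoietin-like genes, whose products resemble the angiopoietins but do not bind TIE2, were detected mainly as Angptl4, and 4 of 7 were tested. None of the 4 passed in edgeR, 1 had p of 0.05 or less before adjustment, and DESeq2 called 1. Among all genes the shares were 2.34%, 13.4% and 5.09%. Angptl4, which encodes an inhibitor of lipoprotein lipase, was at 229 ± 7.76 CPM in Hcy and 286 ± 25.1 CPM in Veh (SD, n = 3). All Hcy libraries were lower for Angptl4, as for 9.27% of genes tested. Its log2 fold change was -0.32 (edgeR adjusted p = 0.0896, DESeq2 adjusted p = 0.0158), and -0.35 without Veh replicate 3 (edgeR adjusted p = 0.0152, with a range of 0.0152 to 0.339 over the alternatives). Angptl2 had 2 to 5 counts per library and a log2 fold change of 0.72 (edgeR adjusted p = 0.703). The median log2 fold change of the 4 was 0.16, but it ran from -0.18 without Veh replicate 2 to 0.48 without Veh replicate 1 when each library was left out. It was -0.0080 without Hcy replicate 3, 0.35 without Hcy replicate 1, 0.43 without Hcy replicate 2 and 0.48 without Veh replicate 3. With filterByExpr, Angptl4 was the 1 gene left, at -0.32.

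**Figure D5:**
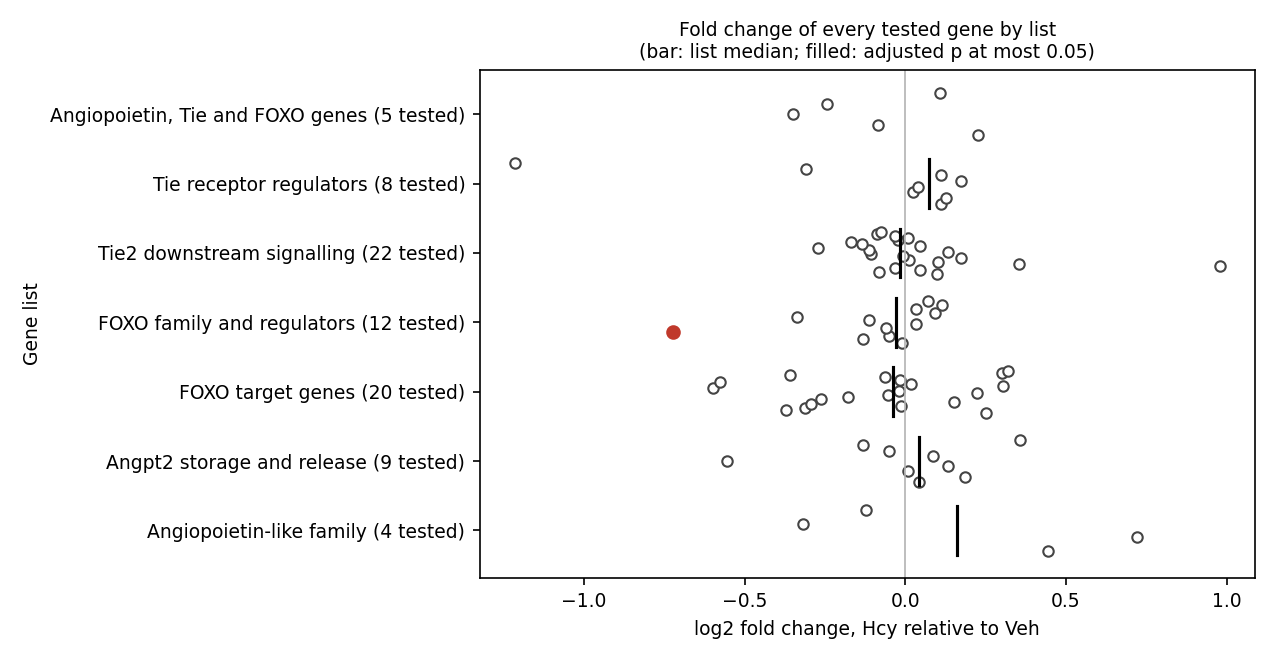
log2 fold change of Hcy relative to Veh for every tested angiopoietin, Tie and FOXO gene and for the genes of 6 pathway lists, with 1 point per gene, bars at the list medians and filled points for an adjusted p of at most 0.05 from edgeR. Mdm2, at -0.72, is the filled point.

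For each of the 5 tested genes, the 3 genes with the most similar profile were found among 11787 genes with at least 1 CPM, by the root mean squared difference of centred log2 CPM over the 6 libraries. For Tek they were Axl, Rassf8 and Alcam, at 0.03 each, and Axl, itself a receptor tyrosine kinase gene, had a log2 fold change of -0.25 (edgeR adjusted p = 0.159). For Angpt2 they were Tbc1d9b, Arhgef15 and Rcc2, at 0.02 to 0.03, with log2 fold changes of 0.20 to 0.21. For Tie1 they were Usp3, Manba and Abca7, at 0.02 each. For Foxo1 they were Arhgef12, Crim1 and Lmbrd2, at 0.04 each. For Foxo3 they were Fnip2, Ptprb and Itpripl2, at 0.09 to 0.11. These likenesses describe 6 libraries that share their group and library effects.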

How the data were processed

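RNA of 6 rBMEC libraries was sequenced after poly(A) selection. The deposited table holds unnormalized read counts for each gene, with gene positions and lengths. The submitters' processing notes name fastp, HISAT2 2.2.1, StringTie 2.2.3, featureCounts 2.0.6, DESeq2 1.42.0 and the build mRatBN7.2. The table names no build and its positions reach 282724300 on chromosome 1, beyond the end of that chromosome in mRatBN7.2, so positions are given as listed. Whether counting used strand is not given in the sources used here. The authors' table of their own comparison (normalized values, log2 fold changes and p-values) was not used.

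Counts were analysed with R 4.3.3 and edgeR 4.0.16. Genes with at least 10 counts over 6 libraries were kept, scaled by TMM, and compared by the quasi-likelihood test in a model of condition alone, with Benjamini-Hochberg adjustment over 14603 genes. A prior count of 0.125 was used for log2 fold changes. Standard errors are the unshrunken coefficient divided by the root of F. DESeq2 1.42.0 was an alternative, as were DESeq2's size factors, library totals alone, count minimums, a replicate block, a prior count of 2 and leaving out each library. edgeR and DESeq2 were tested on simulated data. Genes named were the 7 members, the 3 most alike genes per member, and from each pathway list those past the test or else the 2 with the smallest p. Markers named were among the 3 highest of their list by CPM, at 0 in every library or without a row. Nos3 was added after its values were seen. Members and lists were chosen with earlier results of these data known.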

Additional observations from a re-analysis of the deposited data

How the results depend on the processing

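All 13 alternatives kept the direction of Tek, Tie1, Angpt2 and Foxo3, while Foxo1 turned to 0.080 without Veh replicate 1. With each library left out, log2 fold changes ran from -0.31 to -0.19 for Tek, 0.06 to 0.14 for Tie1, 0.20 to 0.26 for Angpt2, -0.28 to 0.080 for Foxo1 and -0.55 to -0.12 for Foxo3. Between 0 and 2 of the 7 genes passed in those fits, 80 to 957 genes passed in all, 39 to 112 also passed the fold threshold, and 1 to 11 pathway list genes passed. DESeq2 called 1 of the 7 (Angpt2, log2 fold change 0.23), 7 pathway list genes and 612 genes in all, against 0, 1 and 341 in edgeR. A count minimum of 1 gave 2 pathway list genes (Mdm2 and Vwf), and 109 genes past both thresholds against 71. The cause of these shifts was not tested.

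Libraries of the 2 groups share the numbers 1 to 3. Deviations of same-numbered libraries correlated at 0.0237, 0.166 and 0.0581, and those of differently numbered ones at -0.184 to 0.129. Hcy replicates 2 and 3 correlated best with the Veh library of the same number. Hcy replicate 1 correlated best with Veh replicate 3, at 0.129. These values do not settle whether the numbers mark pairs, so the main fit used condition alone. With the replicate block, 0 of the 7 genes and 298 genes in all passed, and the log2 fold changes of Angpt2 and Tek were 0.23 and -0.24 (adjusted p = 0.146 and 0.177 from edgeR). The paired log2 ratio of Tek to Tie1 differed by -0.35 (exact sign-flip p = 0.25, the smallest that 3 pairs allow). Depth limits Angpt1 and Angpt4, which lay under the count minimum of 10.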
